A study of Drosophila melanogaster with 2 samples.

Results

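The 290 transfer RNA (tRNA) genes of the nuclear genome of Drosophila melanogaster were described by the binding of Tailless near them. They were all genes of biotype tRNA in the Ensembl annotation on the major chromosome arms, out of 18164 annotated genes there, and the 22 mitochondrial tRNA genes were left out. The rule used the annotation and no measured value. Whole embryos of both sexes, aged 0 to 4 h, came from a transgenic strain that stably carries Tailless, the product of tll, fused at its C terminus to GFP. Chromatin immunoprecipitation followed by sequencing (ChIP-seq) used an antibody to GFP per the sample descriptions, although another label field names tll as the antibody's target. There was 1 group of 2 biological replicates, numbered 1 and 3, and control samples were not analysed here. In whole embryos, binding in fewer cells and weaker binding in each cell cannot be told apart.

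A tRNA carries 1 amino acid to the ribosome and reads a codon through its anticodon. Its gene is short and is transcribed by RNA polymerase III, and the promoter lies inside the gene, as an A box near the start and a B box further on, which the factor TFIIIC binds. TFIIIC places TFIIIB upstream of the start, and TFIIIB recruits the polymerase. Many tRNA genes exist in several identical copies and stand in clusters. Tailless is an orphan nuclear receptor that acts mainly as a repressor at both ends of the early embryo, at genes transcribed by RNA polymerase II.

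The gene sequences below belong to the strongest summits whose genes could be shown, and they let the internal promoter be read directly. All are written 5′ to 3′ on the strand of the gene, from RefSeq's copy of the Release 6 assembly (dm6), with the A box and the B box in capitals. A symbol gives the amino acid, the anticodon and 2 running numbers, and the prefix tRNA: of the annotation is left out.
Tyr-GTA-1-8, chr3R:8669081-8669174, minus strand: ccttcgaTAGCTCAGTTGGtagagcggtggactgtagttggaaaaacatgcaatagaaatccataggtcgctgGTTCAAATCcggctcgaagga
Gln-CTG-2-3, chr2L:2009538-2009609, plus strand: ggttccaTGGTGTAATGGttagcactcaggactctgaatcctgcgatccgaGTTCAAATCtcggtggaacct
Val-CAC-1-1, chr3R:17617761-17617833, plus strand: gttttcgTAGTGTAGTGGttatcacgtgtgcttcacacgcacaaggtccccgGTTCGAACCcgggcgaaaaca
Pro-TGG-1-1, chr3R:17618110-17618181, minus strand: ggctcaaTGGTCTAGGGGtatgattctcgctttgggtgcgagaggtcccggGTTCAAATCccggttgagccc
Ala-AGC-2-7, chr3R:17646368-17646440, plus strand: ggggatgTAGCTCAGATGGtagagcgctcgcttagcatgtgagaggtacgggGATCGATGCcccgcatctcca
Ala-AGC-2-8, chr3R:17646683-17646755, minus strand: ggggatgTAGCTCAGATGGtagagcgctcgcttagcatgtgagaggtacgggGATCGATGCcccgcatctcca
The last pair is letter for letter the same sequence at neighbouring positions. The A box starts at base 8 in all 6 genes. The B box starts at base 74 in Tyr-GTA-1-8, whose gene has an intron and is 94 bp long, and at base 52 or 53 in the other 5. Across the 290 genes the A box consensus was found on the sense strand of 270 (93.1%) and a B box of the form GATCAANNC, GATCGANNC, GTTCAANNC or GTTCGANNC in 289 (99.7%). Windows of the same length directly upstream held them in 4.48% and 1.72% of cases. The median gene length was 73 bp, with a range of 71 to 186 bp.

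Binding was read from 4 deposited peak lists. Each replicate had a list of 30000 summits, the positions of highest signal within a peak, and a pooled list of 30000 came from both replicates together. A thresholded list of 4045 summits, those past an irreproducible discovery rate (IDR) limit of the authors, held exactly the pooled summits with the highest signal, down to a signal value of 194.6. The signal value is the authors' enrichment score, whose scale is unknown, and the number of reads behind it is unknown. A tRNA gene was counted as having a summit when one lay within 500 bp of the nearer edge of the gene. With 1 group there was no test between conditions, and the intervals given are exact binomial 95% intervals that cover counting error only, since neighbouring genes share summits.

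Few tRNA genes had a summit among the strongest, and most had a weaker one. In the thresholded list 23 of 290 (7.93%, interval 5.09 to 11.7%) had a summit, and in the pooled list 192 (66.2%, 60.4 to 71.6%). Measured from the 5′ end of the gene, so that classes of different length can be set side by side, the counts were 22 (7.59%) and 189 (65.2%). The share over all annotated genes, measured in the same way, was 9.98% in the thresholded list and 45.5% in the pooled list, and over protein-coding genes it was 11.5% and 49.9%. The thresholded share of tRNA genes was therefore near the background, while the pooled share of the class as a whole lay above it. In the separate lists the 5′ end of 166 genes (57.2%) had a summit in replicate 1 and that of 182 (62.8%) in replicate 3, against 44.6% and 44.4% of all annotated genes and 49.0% and 48.4% of protein-coding genes. Sequence within 500 bp of a summit made up 2.68% of the arms in the thresholded list and 17.6% in the pooled list.

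Several other classes of short RNA genes had lower pooled shares than tRNA genes. Of 269 small nucleolar RNA (snoRNA) genes, which guide RNA modification, 2.60% had a thresholded and 24.2% a pooled summit at the 5′ end. Of 260 microRNA precursor genes the shares were 3.46% and 26.5%. Genes annotated as small nuclear RNA (snRNA), not limited to those of the spliceosome, stood at 6.25% and 68.8%. There were only 32, with a pooled interval of 50 to 83.9%, so they could not be separated from tRNA genes. Among other genes that RNA polymerase III transcribes, the 100 genes of 5S ribosomal RNA had 2 pooled and 0 thresholded. How far reads can be placed at the 5S genes was not examined, so a missing summit there cannot be read as missing binding. The 6 genes of U6, 7SK and RNase P RNA had 4 pooled and 0 thresholded. Any of these 6 that are annotated as snRNA were counted in that class as well.

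**Figure D1:**
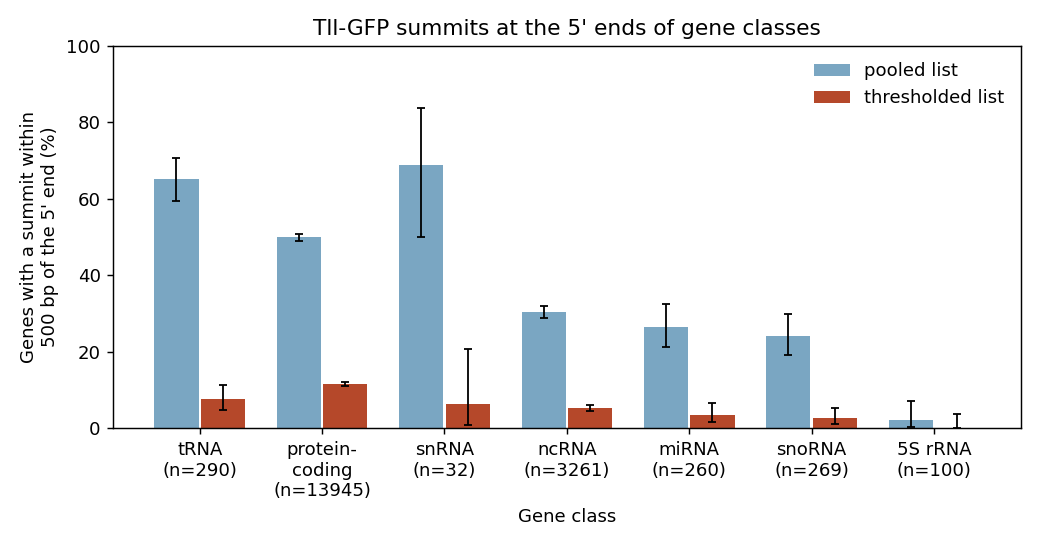
Share of genes with a Tll-GFP summit within 500 bp of the 5′ end, in percent, by gene class, in the pooled (blue) and the thresholded (red) list. Bars are shares, error bars are exact binomial 95% intervals and n is the number of genes. The tRNA bar reaches 65.2% in the pooled list, above the 49.9% of protein-coding genes, and 7.59% in the thresholded list, below their 11.5%.

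The excess of tRNA genes lay in the lower part of the list. When each 5′ end was placed by its strongest pooled summit, 22 tRNA genes (7.59%) fell in ranks 1 to 4045, 76 (26.2%) in ranks 4046 to 15000 and 91 (31.4%) in ranks 15001 to 30000. The shares of protein-coding genes were 11.5%, 25.6% and 12.7%. The median signal of that strongest summit was 87.1 at tRNA genes and 123 at protein-coding genes. Over distinct summits, the 167 pooled ones near tRNA genes had a median signal of 81.3, with 81.9 over the whole list. The 14 thresholded ones had a median of 250.1 and a range of 199 to 598, with 287 over the whole list, and 4 of the 14 lay above that value. The best rank was 457. The authors' −log10 q-value reached at least 2 at 106 tRNA genes and at least 4 at 64, below a ceiling of 4.26. The 169 genes with a pooled summit alone had signal values from 47.1 to 187.5 with a median of 79.3. A further 98 had no pooled summit, and 68 had no entry in any of the lists.

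The 14 thresholded summits stood at 13 separate loci, and 7 of them were shared by more than 1 tRNA gene. The strongest lay on arm 2R, 277 bp from Ala-TGC-2-1 (17392215 to 17392286, dm6), one of the tRNA genes for alanine, and 2030 bp from the nearest protein-coding transcription start site (TSS), that of CG10939. Its signal was 598 in the pooled list, 294 in replicate 1 and 323 in replicate 3, and the replicates averaged 8.27 ± 0.10 (SD, n = 2) on the log2 scale. Both replicates gave this gene the highest value of any tRNA gene in their list. The next, of rank 1196, lay 24 bp from iMet-CAT-1-2 and within 500 bp of iMet-CAT-1-1 and Glu-TTC-1-4. The iMet genes encode the initiator tRNA that starts every protein, and Glu-TTC-1-4 encodes a tRNA for glutamate. There the pooled signal was 377 and the replicates had 218 and 159.5 (log2 mean 7.54 ± 0.32, SD, n = 2), and no protein-coding TSS was nearer than 11924 bp.

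The summit at Tyr-GTA-1-8, a tyrosine tRNA gene in introns of CG8036 and p, had a pooled signal of 348, with 175 in replicate 1 and 185 in replicate 3 (7.49 ± 0.06 on the log2 scale, SD, n = 2). It lay 221 bp upstream of the gene and 223 bp from a TSS of CG8036, so it was as close to one as to the other. At Gln-CTG-2-3, for glutamine, the pooled signal was 295 and the replicates had 164 and 126 (7.17 ± 0.27, SD, n = 2). This summit lay 194 bp from the tRNA gene and 56 bp from a TSS of CG4238. The summit of rank 2075 stood in an intron of gol, which encodes a RING finger protein, 177 bp upstream of Ala-CGC-1-2, with 283 in the pooled list and 162 and 126 in the replicates. Its neighbour Ala-CGC-1-3 lay 460 bp from that summit, and the strongest replicate entries within 500 bp of it had values of 43.6 and 69.6.

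Further summits stood at pairs of genes or at single ones. On 3R, Val-CAC-1-1 for valine and Pro-TGG-1-1 for proline shared a summit of signal 269, 89 bp upstream of the valine gene, where both genes had 140.5 in replicate 1 and had 138 and 113 in replicate 3. The identical genes Ala-AGC-2-7 and Ala-AGC-2-8 shared one of 250.9, 63 bp upstream of the latter, with 123 in replicate 1 and 145 in replicate 3. Ala-AGC-2-7 had no entry of replicate 1 within 500 bp, the only one of the 23 genes without an entry in both replicate lists. Pro-CGG-2-3, in an exon of not, which encodes a ubiquitin protease, had 249 pooled, 118 in replicate 1 and 137 in replicate 3.

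Arg-TCG-2-1, Ser-CGA-1-1 and Ser-CGA-1-2 on X, for arginine and serine, shared a summit of 245 with 114.5 in replicate 1 and 136 in replicate 3. It lay 39 bp upstream of Ser-CGA-1-1 and 14796 bp from the nearest protein-coding TSS. The other 5 summits, at Glu-TTC-1-5, Pro-AGG-1-7, Lys-CTT-1-11, the pair Ser-TGA-1-1 and Ser-TGA-2-1, and the pair Trp-CCA-2-2 and Gly-GCC-1-9, had pooled values from 199 to 237. The last pair, for tryptophan and glycine, had 121 in replicate 1 and 82.9 in replicate 3 around a summit 79 bp from a TSS of CG30122.

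The replicates were compared to learn how far separate embryo samples gave the same tRNA genes. Entries of both replicates lay within 500 bp of 141 genes, entries of replicate 1 alone of 29, entries of replicate 3 alone of 47 and none of 73. Where both had an entry, the log2 signal of replicate 1 less that of replicate 3 had a median of -0.09 and ranged from -1.35 to 1.55, and the median SD of the pair was 0.32. Replicate 1 was the higher at 62 genes and replicate 3 at 79. The strongest entries of the replicates lay a median of 95 bp apart, and within 100 bp of each other at 71 genes. Of the 5′ ends with an entry in either replicate, 62.6% had one in both at tRNA genes (134 of 214) and 74.8% at protein-coding genes (5814 of 7772). A single control alignment was used for both replicates, so their lists share that input.

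The genes with a thresholded summit had the higher median in each replicate, with ranges that overlapped those of the other genes, and the pooled values by which they were chosen come from the same samples. Their replicate 1 values ran from 43.6 to 294 with a median of 121, and those of 132 genes with a pooled summit alone from 27.9 to 104 with a median of 47.5. In replicate 3 the values ran from 69.6 to 323 with a median of 136, against 26.4 to 111 and a median of 49.2 over 147 genes. Of the 23 genes, 20 were among the strongest 4045 entries of replicate 1, 17 among those of replicate 3 and 15 among both. Genes seen in 1 replicate alone had medians of 37.4 in replicate 1 and 38.1 in replicate 3, below the 55.7 and 63.8 of genes seen in both. Their highest values were 95.4 in replicate 1 and 145 in replicate 3, the latter at Ala-AGC-2-7. The largest gap was at Thr-CGT-1-3, a threonine tRNA gene on 3R, with 89.1 in replicate 1 and 30.4 in replicate 3. Leu-CAA-1-1 (80.8 and 32.04) and Ile-AAT-1-7 (80.8 and 34.6), for leucine and isoleucine, differed in the same direction. Both took the same entry of replicate 1, and the replicate 3 entry of Ile-AAT-1-7 lay 698 bp from it. Asp-GTC-1-11 (30.98 and 79.0) and Gly-GCC-2-1 (33.7 and 78.8), for aspartate and glycine, differed in the other direction. Gly-GCC-1-7 took the same entries as Gly-GCC-2-1 and tied with it for the last place among these 5. All of these genes had a pooled summit and none a thresholded one.

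**Figure D2:**
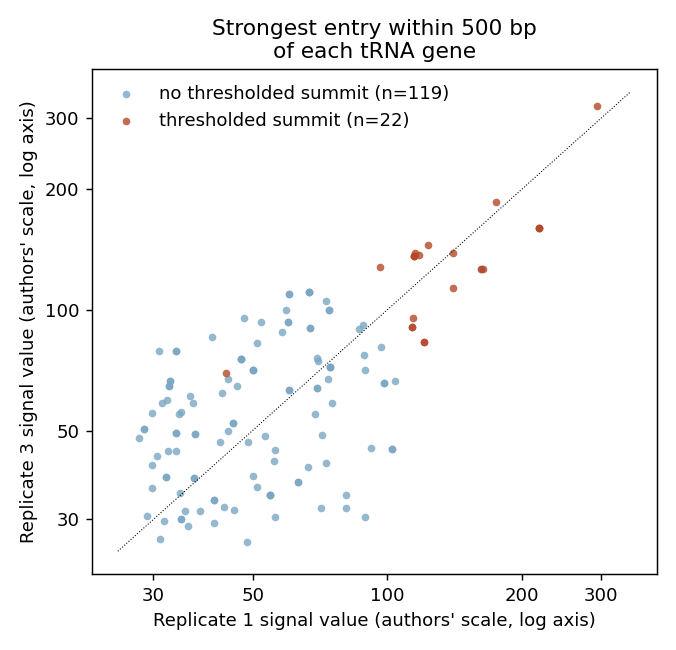
Signal value of the strongest entry within 500 bp of each of the 141 tRNA genes with an entry in both replicate lists, replicate 1 on the horizontal and replicate 3 on the vertical log axis. Each point is a gene, genes that share a summit can coincide, and the dotted line marks equal values. The 22 genes with a thresholded summit (red) lie at the upper right except Ala-CGC-1-3, at 43.6 and 69.6. Ala-CGC-1-1, without a thresholded summit, has the same values as Ala-CGC-1-2 (162 and 126).

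Genes were next grouped by the amino acid of their tRNA. Thresholded summits reached 12 of 22 families and 17 of 45 anticodons, and pooled summits 21 families and 44 anticodons. The highest thresholded shares were those of initiator methionine (2 of 6 genes, at 1 shared summit), alanine (5 of 17, at 3 summits on 2R and 3R) and serine (4 of 20, at 2 summits). Proline had 3 of 17 and glutamate 2 of 19, and arginine, glutamine, glycine, lysine, tryptophan, tyrosine and valine had 1 gene each. The 10 remaining families had none, leucine with its 22 genes among them. Over all annotated genes, measured from the 5′ end, the thresholded share was 9.98%. The 23 genes took only 14 summits, so the counts per family are small and set no family apart.

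In the pooled list glutamate genes stood highest among the larger families with 18 of 19 (94.7%, 74.0 to 99.9%). They form only 6 loci, and neighbours shared summits. In a locus inside Ptp61F, which encodes a tyrosine phosphatase, the genes Glu-CTC-3-4 to Glu-CTC-3-7 all took the value of 1 summit (51.9 pooled, 37.5 in replicate 1, no entry in replicate 3). Around these 4 genes only 2.03 to 53.1% of 31-letter words occur once in the genome. Isoleucine followed with 10 of 11, asparagine with 9 of 10, alanine with 15 of 17 and tryptophan with 7 of 8. Histidine had 4 of 5, and 3 of these had pooled values of 170.5 to 171.3, below the lowest value of the thresholded list.

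The elongator methionine and tyrosine genes stood at the other end. None of the 6 Met-CAT genes, which serve methionine codons inside a coding sequence, had a pooled summit (interval 0 to 45.9%). Of the 6 initiator genes with the same anticodon 4 had one (22.3 to 95.7%), at 2 loci, and the intervals overlapped. The initiator genes iMet-CAT-2-1 and iMet-CAT-1-3, which stood alone, had none. The Met genes were not empty in the replicates: Met-CAT-1-1 had 42.6 in replicate 1 and 62.1 in replicate 3, Met-CAT-1-2 had 34.2 in replicate 3 alone and Met-CAT-1-4 had 29.3 in replicate 1 alone. The 6 Met genes stood at 6 separate loci. Of the 10 tyrosine genes only Tyr-GTA-1-8 had a pooled summit, and it was one of the strongest of all tRNA genes. Its neighbours Tyr-GTA-1-6 and Tyr-GTA-1-7, on the same strand in the same introns, lay 1187 and 690 bp from the nearest pooled summit and had no entry in either replicate. Cysteine (3 of 7), threonine (8 of 17) and aspartate (7 of 14) were also low, and their intervals overlapped that of all tRNA genes.

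**Figure D3:**
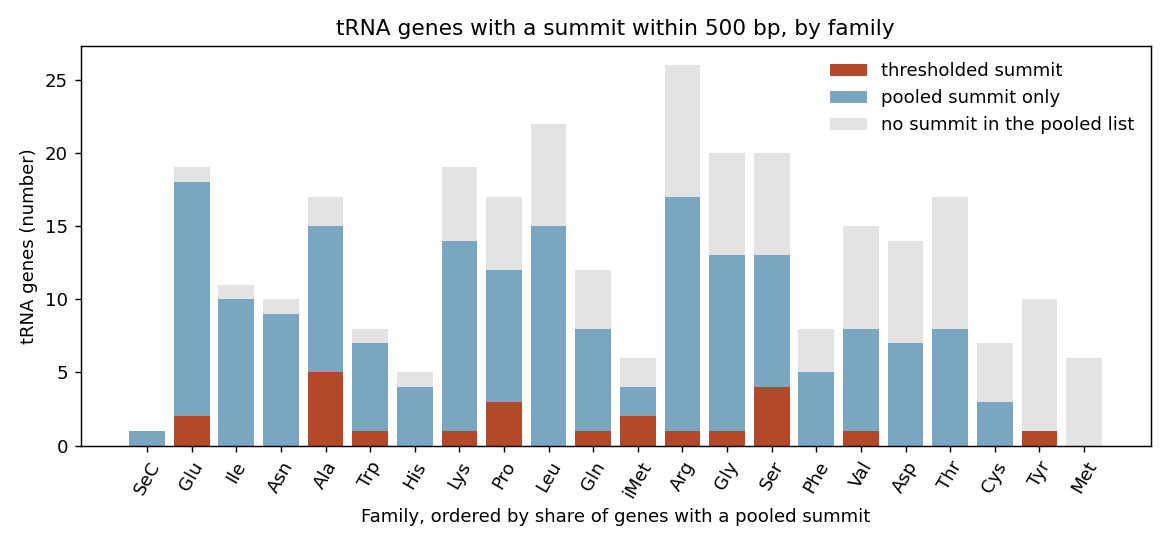
Number of tRNA genes per family with a thresholded summit (red), a pooled summit only (blue) or no pooled summit (grey) within 500 bp, families ordered by the share with a pooled summit. SeC is selenocysteine and iMet initiator methionine. Glutamate has 18 of 19 genes with a pooled summit, tyrosine 1 of 10 and elongator methionine 0 of 6.

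All 10 tyrosine genes hold an intron, as do 4 leucine and 2 isoleucine genes. Of these 16 genes 6 had a pooled summit (37.5%, 15.2 to 64.6%), against 186 of 274 without an intron (67.9%, 62.0 to 73.4%). Outside the tyrosine family 5 of the 6 genes with an intron had one. The lower share thus sat in the tyrosine genes, and family and intron cannot be told apart there.

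Clustered tRNA genes had summits more often than single ones. With at most 5000 bp between neighbours, 214 genes formed 68 clusters and 76 stood alone. Pooled summits were found at 158 clustered genes (73.8%, 67.4 to 79.6%) and at 34 single genes (44.7%, 33.3 to 56.6%), and these intervals did not overlap. The share over all annotated genes, measured from the 5′ end, was 45.5%. The interval of single genes included that share, and the interval of clustered genes lay above it. Thresholded summits were found at 21 (9.81%, 6.18 to 14.6%) and 2 (2.63%, 0.320 to 9.18%), whose intervals overlapped. The pooled share was 69.5% in clusters of 2 to 3 genes, 71.7% in those of 4 to 6 and 88.4% in those of 7 or more. The thresholded share was 6.78%, 7.55% and 20.9%, with 9.98% over all annotated genes, measured from the 5′ end. Within each list the intervals of these size classes overlapped, so no rise with cluster size can be read from them. The 20.9% rests on 9 genes in 3 of 5 clusters, and these genes share summits. By locus, 58 of 68 clusters and 34 of 76 single genes had a pooled summit. A cluster covers more sequence than a single gene and its genes share summits, and the part of that in the difference was not tested.

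The largest clusters differed in level. The cluster of 11 genes on 2R (6161535 to 6171759), with tRNA genes for arginine, asparagine, isoleucine and lysine, had a pooled summit at all 11 genes and no thresholded one, with a highest value of 172 at Arg-ACG-1-3 (86.6 in replicate 1 and 89.5 in replicate 3). The equally large cluster on 3R (17617761 to 17631750), with alanine, proline, threonine and valine genes, had the thresholded summit that Val-CAC-1-1 and Pro-TGG-1-1 share at its left end. The next 6 genes had values of 94.1 to 148, and the last 3 genes had no entry in any list. In the cluster of 7 initiator methionine and glutamate genes on 2R (19725620 to 19728958) all had a pooled summit, with 377 at the initiator genes, 237 at Glu-TTC-1-5, 51.6 at Glu-TTC-1-6 and 174 at Glu-CTC-2-2.

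The X cluster of 7 arginine and serine genes (14014814 to 14017284) had 3 genes at 245, Arg-TCG-3-1 with no entry, and 3 genes at 47.1 that neither replicate list held. The cluster of 7 isoleucine and leucine genes in an intron of ATP8A on 2R reached 150.0 at Leu-CAA-2-1, where the replicates had 74.5 and 72.1. Of the 4 clusters of 6 genes, none had a thresholded summit, and the one of arginine and asparagine genes on 3R (8139533 onward) had a pooled summit at 2 genes only.

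**Figure D4:**
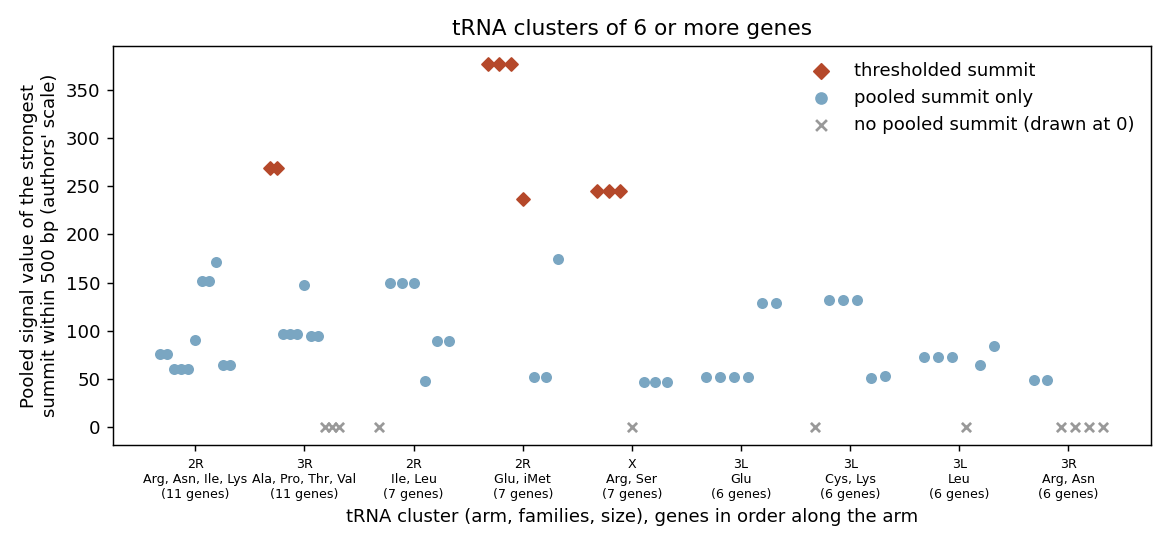
Pooled signal value of the strongest summit within 500 bp of each gene in the 9 clusters of 6 or more tRNA genes, genes in their order along the arm. Diamonds are thresholded summits, circles pooled summits only and crosses genes with none, drawn at 0. Equal heights within a cluster mark genes that share a summit, as for the 3 genes at 377 in the initiator methionine and glutamate cluster.

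By arm, pooled summits were found at 78.6% of the 98 genes on 2R, 68.8% of 48 on 3L, 66.7% of 24 on X, 57.0% of 79 on 3R and 51.2% of 41 on 2L, and no tRNA gene lies on 4. Arm 2R held 33.8% of the tRNA genes and 7 of their 14 thresholded summits, while it held 18.5% of the whole thresholded list.

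Distance to protein-coding promoters separated the tRNA genes little. Of the 125 genes within 2000 bp of a protein-coding TSS, 10 (8.00%) had a thresholded and 86 (68.8%) a pooled summit, and of the 165 further away 13 (7.88%) and 106 (64.2%). In finer classes the thresholded share was 15.2% up to 500 bp, 5.43% to 2000 bp, 3.77% to 10000 bp and 15.3% beyond, and the pooled share was 72.7%, 67.4%, 61.3% and 69.5%. The thresholded shares of the outermost class (9 genes) and of the class next to a promoter (5 genes) were about the same. The intervals of all 4 classes overlapped. Of the 9 genes, 4 stood in 1 cluster on 2R and 3 in 1 cluster on X, so they are not separate. Among thresholded summits 12 of 14 were nearer to the tRNA gene than to a protein-coding TSS, and among pooled ones 158 of 167, which the choice of summits within 500 bp of a tRNA gene largely fixes. Of the 14, 4 lay within 500 bp of a protein-coding TSS, 8 more than 2000 bp and 5 more than 10000 bp away. Those near a TSS as well as a tRNA gene cannot be assigned to one of them. The 9 pooled summits nearer to a TSS had a median signal of 148 and the 158 nearer to a tRNA gene 79.7.

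Between genes, 19 of 156 tRNA genes (12.2%, 7.49 to 18.4%) had a thresholded summit, and inside introns of other genes 3 of 127 (2.36%, 0.490 to 6.75%). These intervals did not overlap, but they take genes that share a summit as separate. Of the 3 genes in introns, Ala-CGC-1-2 and Ala-CGC-1-3 share 1 summit, and several of the 19 genes share summits too. In the pooled list the shares were 67.3% and 64.6%. The difference was thus seen in the thresholded list, where it rests on few separate summits, and was not detectable in the longer list. The 7 tRNA genes that overlap an exon had 1 thresholded and 5 pooled summits.

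The position of summits along the genes was then described. None of the 14 thresholded summits and 16 of the 167 pooled ones fell inside a tRNA gene, which is a small part of the window in which summits were counted. The distance to the nearest tRNA gene had a median of 132 bp in the thresholded list, with a range of 24 to 312 bp, and of 112 bp in the pooled list. Counted along the direction of transcription, pairs of a pooled summit and a tRNA 5′ end were most frequent in the 100 bp upstream of the start, at 12.8 per 100 genes, and protein-coding genes had their highest value, 15.5, in the same place. More than 100 bp downstream and more than 500 bp upstream of the start, tRNA genes had the higher values. In the steps between, the order varied. A summit near several genes was counted with each of them. Within 500 bp, 69 of the 167 pooled tRNA summits served 2 or more tRNA genes. The part of that in the difference was not tested. From 100 to 500 bp downstream the values for tRNA genes in steps of 100 bp were 10.3, 6.55, 8.62 and 5.52, and for protein-coding genes 5.87, 3.92, 2.70 and 2.21. Most tRNA genes end before the first of these steps, so such summits lie past the gene. Upstream, in the steps from -1000 to -500 bp, the values were 6.21, 5.52, 5.86, 3.79 and 3.45 for tRNA genes and 2.47, 2.69, 2.44, 2.52 and 2.64 for protein-coding genes. The median signed position of pooled summits within 500 bp was -25 bp, and of thresholded ones -76 bp. In the thresholded list the 100 bp upstream held 1.38 pairs per 100 tRNA genes and 3.27 per 100 protein-coding genes.

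**Figure D5:**
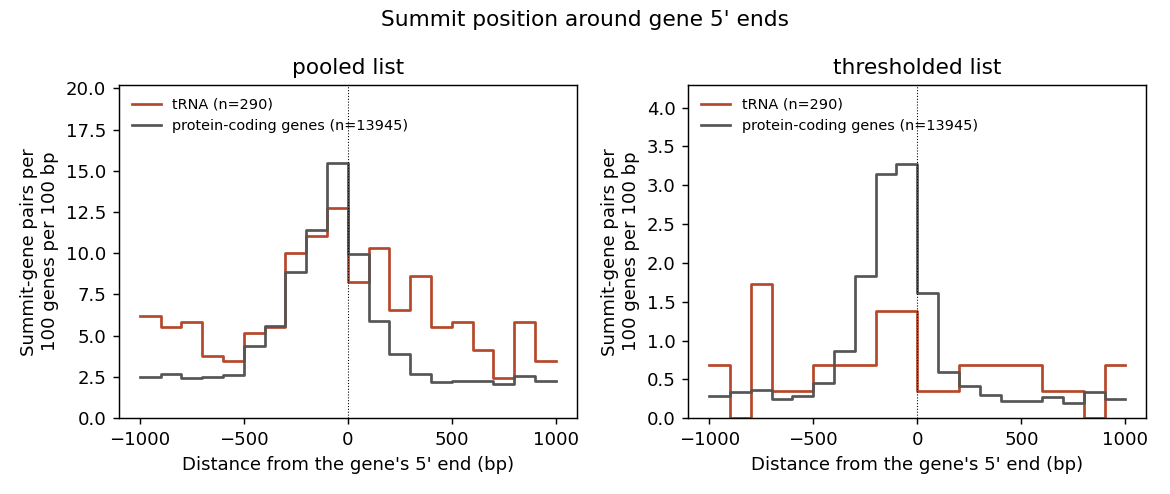
Pairs of a summit and a gene per 100 genes in steps of 100 bp around the 5′ end, negative values upstream, for 290 tRNA genes (red) and 13945 protein-coding genes (grey), in the pooled and the thresholded list. In the pooled list both classes are highest just upstream of the start (12.8 and 15.5). In that list the tRNA line lies above the other from 100 bp downstream on and from -1000 to -500 bp upstream. A summit near several genes is counted with each of them.

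At the 500 bp limit, the 3 genes just inside it in the thresholded list were Pro-TGG-1-1, Ser-CGA-1-2 and Ala-CGC-1-3, at 438 to 460 bp, and the 3 just outside it were Ala-CGC-1-1, Gln-CTG-2-2 and iMet-CAT-1-3, at 512 to 597 bp. Ala-CGC-1-1 had entries of both replicates within 500 bp (162 and 126), the same values as Ala-CGC-1-2, although the summit at 512 bp was not counted. In the pooled list 11 genes lay at 407 to 493 bp and 11 at 501 to 597 bp.

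Of the 5 thresholded tRNA summits more than 10000 bp from a protein-coding TSS, 4 held the word AAGTCA within 50 bp, and the one at Glu-TTC-1-5 did not. This word is the core of the Tailless binding site. These were the only ones of the 14 thresholded tRNA summits that held it. Its share over all thresholded summits at that distance from a TSS was not counted, so no excess can be read from these few summits. The windows below, chosen because they hold the word, of 50 bp to either side of the thresholded summit, are the ones near Ser-CGA-1-1 and near Pro-AGG-1-7, more than 10000 bp from the nearest protein-coding TSS. They are written on the plus strand of dm6, with the word in capitals.
chrX:14014956-14015056: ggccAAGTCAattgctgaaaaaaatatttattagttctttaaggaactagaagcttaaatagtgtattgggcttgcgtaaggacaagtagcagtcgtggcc
chr3L:13212208-13212308: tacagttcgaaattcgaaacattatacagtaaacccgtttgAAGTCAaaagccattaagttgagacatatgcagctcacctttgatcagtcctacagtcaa
Each window holds the word once on the strand shown.

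Words were then counted within 50 bp of all summits, on both strands. AAGTCA was present at 4 of the 14 thresholded tRNA summits (28.6%, 8.39 to 58.1%) and at 15.03% of all thresholded summits, a difference within counting error. At pooled tRNA summits it was present at 18 of 167 (10.8%, 6.51 to 16.5%), with 9.89% over the whole list. CAGGTA, the core of the site of the early activator Zelda, was found at 2 of 14 thresholded and 4 of 167 pooled tRNA summits (2.40%), with 7.24% and 4.01% over the whole lists. GAGAGA, which GAGA factor binds, was found at 0 of 14 and 4 of 167 (2.40%), with 6.97% and 5.39% in the lists. CGATA, a word of the boundary protein BEAF-32, was found at 16 of 167 pooled tRNA summits (9.58%, 13.4% in the list), its longer form TCGATA at 7 (4.19%, 5.35% in the list), and TATCGATA, the DNA replication-related element, which contains both, at 2 (1.20%, 1.28% in the list). For each of these words the interval at tRNA summits included the share of the whole list, so the differences were within counting error.

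The word GGTTCGA, the start of a B box that occurs inside 145 of the 290 tRNA genes, stood within 50 bp of 13 pooled tRNA summits (7.78%, 4.21 to 12.9%) and of 0.773% of all pooled summits. Within 100 bp it was found at 33 (19.8%) and 1.63%. Since the word is part of the genes by which these summits were chosen, its share describes how close they lie to the gene body. In the thresholded list it was found at 1 of 14.

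The copy number of a tRNA gene bears on whether reads can be placed. The 290 genes had 95 distinct sequences, the most frequent present 13 times. Of 52 genes whose sequence occurs once, 23 had a pooled summit (44.2%, 30.5 to 58.7%), and 10 of the 52 are the tyrosine genes. Without these, 22 of 42 (52.4%) had one. The share was 77.6% (64.7 to 87.5%) over 58 genes with 2 to 4 copies and 68.9% (61.6 to 75.6%) over 180 genes with 5 or more. Thresholded shares were 9.62%, 10.3% and 6.67%. Of the 52 genes found once, 23 stood alone and 29 in clusters, while 76 of all 290 genes stood alone. Single genes had a pooled share of 44.7%. The part of clustering in the shares by copy number was not tested. Around a gene, with 250 bp to either side, a median of 90.6% of 31-letter words occurred once in the genome. Pooled summits were found at 59.7% of 176 genes with at least 90% of such words, at 75.5% of 106 genes with 50 to 90% and at 7 of 8 genes with less, and those 8 had no thresholded summit. The thresholded shares of the first 2 classes were 9.66% and 5.66%, and the median pooled signal was 96.8, 78.3 and 51.9 in the order given, so the pooled share and the signal ran in opposite directions. The part of clustering in these shares was not tested either. The way the authors placed reads with several matches is not given in the sources used here.

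Finally, the genes that make and charge tRNAs were examined, in lists of 16 genes for RNA polymerase III with its factors and of 20 cytoplasmic aminoacyl-tRNA synthetases, the enzymes that join a tRNA to its amino acid. These genes are protein-coding, and a summit within 500 bp of any TSS was counted. In the first list 4 of 16 (25%, 7.27 to 52.4%) had a thresholded and 14 a pooled summit, and in the second 6 of 20 (30%, 11.9 to 54.3%) and 18. Over all protein-coding genes 13.3% had a thresholded and 52.3% a pooled summit. The thresholded interval of each list included that share, and the pooled intervals (61.7 to 98.4% and 68.3 to 98.8%) lay above theirs. In replicate 1 the counts were 14 and 17, with 51.5% of protein-coding genes, and in replicate 3 they were 12 and 19, with 51.0%. The replicate 3 interval of the RNA polymerase III list (47.6 to 92.7%) included that share.

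Brf and Bdp1, which encode subunits of TFIIIB, had pooled signals of 473 (238 in replicate 1 and 236 in replicate 3) and 301 (163 and 135). The polymerase subunit genes Polr3C and Polr3E had 351 (177 and 188) and 292 (120 and 161). Brf thus ranked 765 in the thresholded list, behind only Ala-TGC-2-1 among the tRNA genes and these lists. Polr3A, the gene of the largest subunit, and Maf1, which encodes a repressor of the polymerase, had no entry in any list.

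Among the synthetases ArgRS had 389 (236 in replicate 1 and 155 in replicate 3), IleRS 289 (119 and 159) and SerRS 286 (118 and 165). The genes beta-PheRS, GluProRS and GlyRS had 237, 222 and 211. The 10 thresholded summits of both lists lay 4 to 166 bp from a TSS. AlaRS and HisRS had no pooled summit, unlike the other 18 of the 20 synthetases. AlaRS had an entry in replicate 3 alone (35.3), and HisRS had none in any list.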

How the data were processed

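Peak lists on dm6 were used as deposited, 1 per replicate, 1 pooled and 1 past an IDR threshold, made by the authors from alignments of the replicates and 1 shared control, per the labels' accompanying text. No source used here gives the aligner, the peak caller or the threshold. Entries were ranked and described by the authors' deposited signal. The authors' deposited −log10 q-value was counted only, and positions came from the deposited summit offset. Depth is unknown.

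The annotation was Ensembl 115 on BDGP6.54, and sequence was RefSeq's copy of the Release 6 assembly. Shares, exact binomial intervals, distances, words and copies were computed in Python (3.11.15) with pandas (2.3.3), numpy (2.4.6) and scipy (1.17.1), plots came from matplotlib (3.10.9), and the steps were tested on simulated data. Replicate values are the strongest entry within 500 bp. The gene class, the lists and the tests were chosen with earlier results of these data known, although the rule for members uses the annotation alone. Genes were named by rule: those at the 15 strongest thresholded tRNA summits (only 14 exist), the largest clusters with ties, families of extreme share, the 5 largest replicate differences and machinery genes with a thresholded summit. For the 3 lowest thresholded shares 10 families tied at 0, so low and high pooled families were named after their values were seen. Other genes named for comparison, as Leu-CAA-2-1, were also chosen after values were seen. Alternatives were other distances, cluster gaps, list lengths and single replicates.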

Additional observations from a re-analysis of the deposited data

How the results depend on the processing

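The thresholded count of 23 genes was 14 at 250 bp, 37 at 1000 bp, 6 with the 2022 strongest summits alone, 15 of 210 genes over 1000 bp from a protein-coding TSS, and 5 of 52 genes whose sequence occurs once. With 1 replicate's strongest entries in place of the list it was 21 to 27. The pooled count of 192 was 103 with the 15000 strongest summits and 170 to 188 with 1 replicate. The median thresholded signal of 250.1 was 259.7 at 1000 bp, 362.6 in the 2022 strongest and 122.0 to 127.6 in the replicates, which have their own scale. Clustered less single genes, 7.18 percentage points in the thresholded list, was 2.98 at 250 bp, 2.80 in the 2022 strongest and 6.25 to 9.05 with 1 replicate. Near less far from a promoter, 0.121 percentage points, turned to -0.0485 at 250 bp, -1.33 at 1000 bp, -0.679 from the 5′ end, -0.824 in the 2022 strongest and -3.33 with near set at 5 kb, was 8.15 at 500 bp, and ran from -0.0727 to 1.92 with 1 replicate, so no direction can be given. Genes with an entry in both replicates fell from 141 to 91 at 250 bp. The pooled share of once-only genes less that of the others, -26.8 percentage points, was -20.4 to -15.2 with 1 replicate, and the median position of -25 bp was -33 to -27.5; these and the same check for families and machinery lists were chosen after seeing the data. The cause of these changes was not tested beyond what fewer or more summits and genes bring. Of 52 alternatives 18 moved a value, 6 turned its sign and 28 did neither, where unmoved means a count within 1.5 times the main one, a word share inside the main interval, or another value within 1 SD of the replicates. Among these the pooled count was 143 at 250 bp and 228 at 1000 bp. No symbol marks a pseudogene, so leaving pseudogenes out was not run. No paired analysis was possible because there was 1 group. The unknown depth and the fixed list length limit what can be said of genes without an entry.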
